A study of Mus musculus with 13 samples.

Results

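Ch25h, Stra6, Lrrc15, Ptprb and Pakap are 5 genes whose RNA was lower than vehicle after each of 3 small-molecule inhibitors in mouse astrocyte cultures. They were chosen by name from the authors' deposited tables, because each was present in all 3 tables, and lower in each. The 3 tables together name 1593 genes, 57 of them are in all 3, and 38 of those are lower in all 3. The 5 genes are those of the 38 with the lowest mean of the 3 log2 fold changes, from -1.54 for Pakap to -1.34 for Ptprb. Because the fold changes chose the genes, their direction and size against vehicle are a description and carry no test here. The choice did not rank genes by the difference between compounds, and that difference was tested. The test used the same 3 fold changes, so it is not fully independent of the choice. A deep value under 1 compound, such as SB431542 for Stra6 (-2.20) and Lrrc15 (-2.32), both lowers the mean and widens the difference.

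The cells were primary astrocytes, the supporting glia of nervous tissue, taken at post natal day 1-3 from wild type mice of the C57BL/6 strain (tissue: retina and optic nerve) and grown in medium with serum. All samples were taken after 24 h: 4 given vehicle, 3 given SB431542, 3 given HLM006474 and 3 given a compound called the RUNX1 inhibitor here, whose code name stands beside that description in the plots. The labels give no dose. SB431542 inhibits the type I receptor kinases that pass on TGF-beta and activin signals. The RUNX1 inhibitor is directed at the transcription factor RUNX1 acting with its partner CBFB, and HLM006474 at transcription factors of the E2F family. Whether the effects came through these targets was not tested. The labels do not tell whether replicates are different animals or dishes of 1 culture, so each p-value reflects only sample-to-sample spread, which could be technical. Of 11 astrocyte markers 1 was in each of the authors' deposited tables, and it was lower there. Kcnj10, a potassium channel gene with a mean normalised count of 23893, stood at -0.77 ± 0.037 (log2 fold change, SE) for SB431542. Fabp7, a fatty acid binding protein gene with a mean of 18965, stood at -0.67 ± 0.055 for the RUNX1 inhibitor and -0.64 ± 0.055 for HLM006474 in the authors' deposited tables. Whether the lower values of Kcnj10 and Fabp7 bear on the values of the 5 genes was not tested. Values for each library were not analysed here, so depth is unknown and each value carries the authors' standard error (SE). In bulk RNA, fewer cells of a type and less RNA per cell cannot be told apart. Because no dose is given, a difference between compounds cannot be told apart from a difference in dose.

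The 5 genes belong to different systems. Ch25h encodes cholesterol 25-hydroxylase, an enzyme of the endoplasmic reticulum that turns cholesterol into 25-hydroxycholesterol. This oxysterol restrains sterol synthesis and is a precursor of ligands for the immune cell receptor Gpr183. Stra6 encodes the membrane receptor that takes up retinol from retinol-binding protein. It was named for being stimulated by retinoic acid and is best known in the retinal pigment epithelium. Lrrc15 encodes a membrane protein with leucine-rich repeats that marks TGF-beta-stimulated fibroblasts. Ptprb encodes the receptor tyrosine phosphatase VE-PTP, which in vascular endothelium acts on the angiopoietin receptor Tek and on the cadherin Cdh5. Pakap is a compound locus that joins a paralemmin gene to a gene for an anchor of protein kinase A.

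Positions are those of GENCODE M21 on GRCm38, the build that the submitters' processing notes name. Ch25h lies on chromosome 19 at 34473778 to 34475164, minus strand, and is a single exon of 1387 bases. A noncoding gene on the opposite strand, Gm26902, shares 159 of those bases. Lrrc15 lies on chromosome 16 at 30269302 to 30283256, minus strand, with 2 exons. Stra6 spans 58063788 to 58153996 on the plus strand of chromosome 9, and Ptprb spans 116275523 to 116389535 on the plus strand of chromosome 10. Pakap spans 57568179 to 57896982 on the plus strand of chromosome 4. Palm2 and Akap2, annotated there as separate genes on the same strand, together cover 98.2% of its 8456 exonic bases. Akap2 alone covers 81.5% and Palm2 16.7%. Neither Akap2 nor Palm2 is in any of the tables. How reads in shared exons were assigned is not given in the sources used here, so the value of Pakap may stand for part of this locus only.

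Promoter sequences are shown because the compounds act on pathways with known DNA-binding factors (SMAD, RUNX and E2F), and the 5 genes were lower together. RefSeq (GRCm38.p6) gave starts for 4 of the 5 genes, 11 starts in all. The bases before a start, without bases that GENCODE places in an exon of the locus, are given 5′ to 3′ on the gene's strand. Capitals mark matches, on either strand, to the words searched. These were GTCTAGAC or the shorter CAGACA for SMAD, TGTGGT or its variant TGCGGT for RUNX, and TGANTCA for AP-1. For E2F the words were TTTGGCGC, then TTTCGCGC, then TTTCCCGC, then TTTGCCGC and last GGCGGGAA. Nuclear receptor words were AGGTCA or the related GGTTCA, the SP1 word was GGGCGG, and TATAAA was searched for the TATA box. For Stra6 the first of 4 starts is shown, and for Pakap the third of 5, the one nearest to the GENCODE start of the gene. The windows are chr16:30283257-30283504 (minus strand) for Lrrc15, chr9:58128838-58129087 (plus strand) for Stra6, chr19:34475165-34475398 (minus strand) for Ch25h and chr4:57567998-57568158 (plus strand) for Pakap.
Lrrc15: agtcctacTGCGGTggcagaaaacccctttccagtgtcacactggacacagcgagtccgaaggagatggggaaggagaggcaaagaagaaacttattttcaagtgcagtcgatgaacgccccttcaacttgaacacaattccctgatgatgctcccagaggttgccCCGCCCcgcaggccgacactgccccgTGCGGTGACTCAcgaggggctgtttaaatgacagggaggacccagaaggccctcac
Stra6: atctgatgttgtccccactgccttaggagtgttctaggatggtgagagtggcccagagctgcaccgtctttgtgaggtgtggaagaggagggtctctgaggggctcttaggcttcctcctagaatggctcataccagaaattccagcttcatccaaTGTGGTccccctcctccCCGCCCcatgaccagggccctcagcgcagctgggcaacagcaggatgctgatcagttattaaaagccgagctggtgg
Ch25h: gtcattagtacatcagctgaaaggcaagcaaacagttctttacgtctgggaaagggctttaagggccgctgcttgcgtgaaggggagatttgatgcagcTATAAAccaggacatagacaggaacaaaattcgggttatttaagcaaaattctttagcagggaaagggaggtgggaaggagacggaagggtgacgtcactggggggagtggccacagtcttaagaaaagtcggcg
Pakap: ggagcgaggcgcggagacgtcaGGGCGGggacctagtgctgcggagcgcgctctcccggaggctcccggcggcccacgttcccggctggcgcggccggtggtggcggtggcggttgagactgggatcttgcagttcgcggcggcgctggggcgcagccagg

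Matches were counted in the 250 bases before each start. The RUNX letters TGCGGT occurred at 2 places before the Lrrc15 start, 242 and 58 bases upstream, and the nearer one overlaps the AP-1 letters 53 bases upstream. TGCGGT is in 5.1% of all 32851 RefSeq promoter windows of this length and TGANTCA in 6.75%. The Stra6 start shown has TGTGGT 94 bases upstream, a word found in 14.0% of all windows. Stra6 starts 3 and 4 have the SMAD letters CAGACA, 120 and 14 bases upstream, and 17.1% of all windows have them. Ch25h has TATAAA 151 bases upstream (12.4% of windows) and none of the other words. Pakap start 2 has AGGTCA 218 bases upstream (14.0% of windows). The SP1 letters GGGCGG are before starts of Lrrc15, Stra6 and Pakap and in 32.7% of windows. None of the 5 E2F words and no GTCTAGAC is in any of the 11 windows, where 0.256% to 1.86% and 0.167% of all windows have them. A match is a description of letters and not a site of binding, and no match says only that these letters are not in this window.

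Against vehicle, SB431542 had its deepest values for Lrrc15 and Stra6, the RUNX1 inhibitor for Pakap, and HLM006474 for Ch25h. In the authors' deposited tables the 5 genes ran from -2.32 to -1.30 on the log2 scale under SB431542, from -1.69 to -0.90 under the RUNX1 inhibitor and from -1.84 to -0.98 under HLM006474. Their medians were -1.45, -1.07 and -1.48, where all lower genes of the same tables had medians of -0.88, -0.77 and -0.84. The 5 genes had the lowest means of the genes lower in all 3, so deeper medians follow largely from the choice. A gene was listed as lower in the authors' deposited tables for 2.64% of 15169 genes tested with SB431542, 2.32% of 13561 with the RUNX1 inhibitor and 4.22% of 15169 with HLM006474. Being listed in all 3 chose the 5 genes, so nothing is read from that count. The 3 comparisons share the same 4 vehicle samples.

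**Figure D1:**
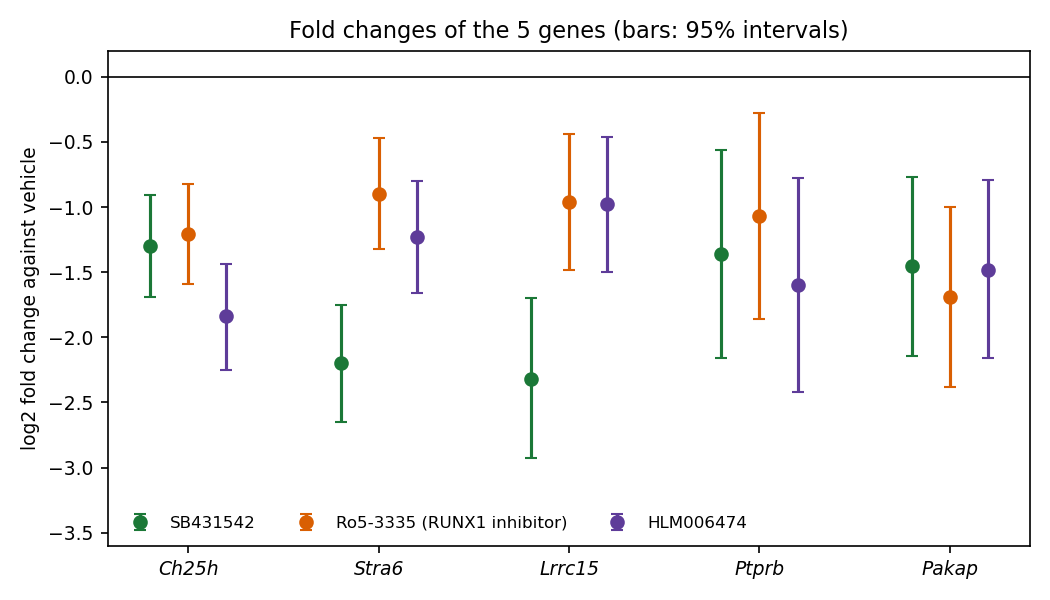
The log2 fold change against vehicle (vertical axis) is plotted for each of the 5 genes and each compound, with bars for 95% intervals from the authors' standard errors. Stra6 and Lrrc15 sit lowest under SB431542 (-2.20 and -2.32), while the 3 intervals of Ptprb and of Pakap overlap widely.

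The mean count over all 13 libraries and the 3 fold changes together imply a level for each group, given here as a normalised count. The standard errors allow a check: with these levels, each of the 3 errors of a gene gives a dispersion, and over the 38 genes the largest of the 3 exceeded the smallest by a median ratio of 1.02. The levels are estimates of group means and have no spread of their own.

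Ch25h, the oxysterol enzyme, stood at an implied level of 227 in vehicle, 92.2 under SB431542, 98.4 under the RUNX1 inhibitor and 63.3 under HLM006474. HLM006474 left 27.9% of the vehicle level (95% interval 21.1% to 36.9%), SB431542 40.6% (31.1% to 53.2%) and the RUNX1 inhibitor 43.3% (33.1% to 56.8%). The log2 fold changes were -1.84 ± 0.21, -1.30 ± 0.20 and -1.21 ± 0.20 (SE) in the authors' deposited tables, with adjusted p of 3.65e-17, 1.75e-09 and 4.64e-08 from the authors' DESeq2 fit.

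Stra6, the retinol receptor, stood at 303 in vehicle, 65.8 under SB431542, 162 under the RUNX1 inhibitor and 129 under HLM006474, as implied levels. SB431542 left 21.7% of the vehicle level (95% interval 15.9% to 29.7%), HLM006474 42.6% (31.7% to 57.3%) and the RUNX1 inhibitor 53.6% (39.9% to 72.0%). The intervals of SB431542 and the other 2 compounds do not overlap. In the authors' deposited tables the log2 fold changes were -2.20 ± 0.23 for SB431542, -1.23 ± 0.22 for HLM006474 and -0.90 ± 0.22 for the RUNX1 inhibitor (SE). The authors' adjusted p (DESeq2) was 6.98e-20, 3.79e-07 and 0.000457 in that order.

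Lrrc15, the leucine-rich repeat membrane protein gene, stood at an implied 66.3 in vehicle and 13.3 under SB431542. Under the RUNX1 inhibitor and HLM006474 it stood at 34.0 and 33.6. SB431542 left 20.1% of the vehicle level (95% interval 13.1% to 30.7%), the RUNX1 inhibitor 51.4% (35.8% to 73.8%) and HLM006474 50.7% (35.4% to 72.6%). The log2 fold changes were -2.32 ± 0.31, -0.96 ± 0.27 and -0.98 ± 0.26 (SE) in the authors' deposited tables, with adjusted p of 7.43e-12, 0.00299 and 0.0017 (DESeq2). The 2 weaker values lie close together and apart from the SB431542 value.

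Ptprb, the vascular phosphatase gene, had the lowest mean count of the 38 genes, 21.6, with implied levels of 37.0 in vehicle, 14.4 under SB431542, 17.6 under the RUNX1 inhibitor and 12.2 under HLM006474. Its log2 fold changes in the authors' deposited tables were -1.60 ± 0.42 for HLM006474, -1.36 ± 0.41 for SB431542 and -1.07 ± 0.40 for the RUNX1 inhibitor (SE). The order of the 3 compounds lies within these errors. Its adjusted p (DESeq2) was 0.0405 under the RUNX1 inhibitor, beside a largest value of 0.0482 in that table, and 0.00666 and 0.00119 under SB431542 and HLM006474. No gene of the table of the RUNX1 inhibitor has a lower mean count than Ptprb, while the other 2 tables reach down to 5.12 and 5.09.

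Pakap, the kinase A anchor locus, stood at 230 in vehicle and at 84.1, 71.3 and 82.8 under SB431542, the RUNX1 inhibitor and HLM006474, as implied levels. The compounds left 36.5%, 31.0% and 35.9% of the vehicle level. The log2 fold changes were -1.45 ± 0.35, -1.69 ± 0.35 and -1.48 ± 0.35 (SE) in the authors' deposited tables, with adjusted p of 0.000401, 3.34e-05 and 0.000275 (DESeq2). Under the RUNX1 inhibitor 4 of 315 lower genes had a lower log2 fold change than Pakap, which ranked 5. Its ranks were 78 of 401 for SB431542 and 66 of 640 for HLM006474. A rank also depends on how deep the other genes of its table lie, so the ranks are a description only. The Pakap difference was -0.24 ± 0.50 (SE) for the RUNX1 inhibitor minus SB431542 and 0.21 ± 0.50 for HLM006474 minus the RUNX1 inhibitor. Neither passed the z test described below (adjusted p = 0.949 and 0.995).

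**Figure D2:**
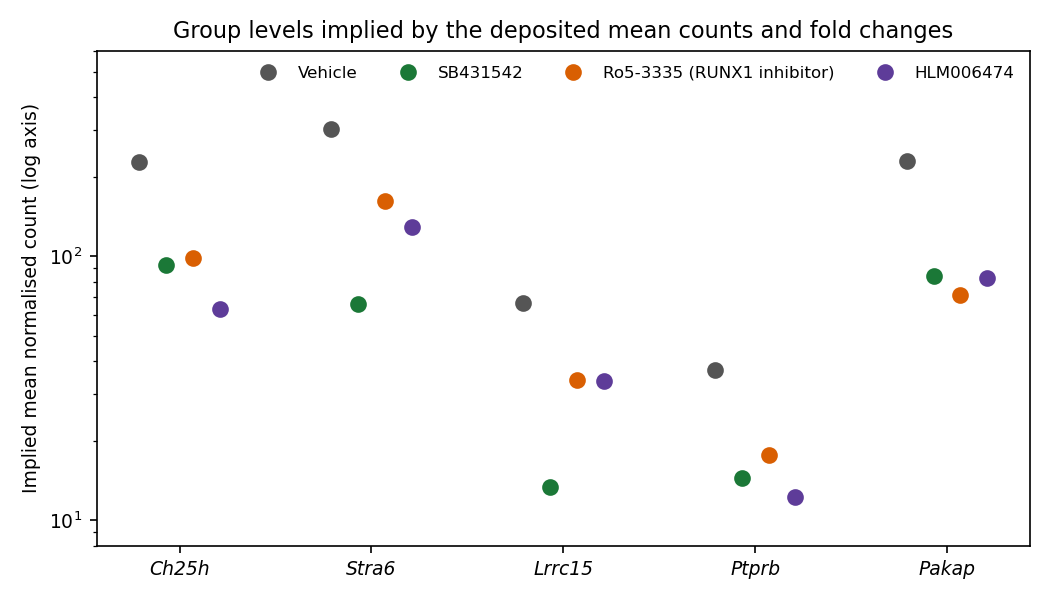
Implied mean normalised counts (vertical log axis) are plotted for vehicle and the 3 compounds, 1 point for each group and gene, with no replicate spread. Vehicle is the highest point for each gene, and SB431542 is set apart from the other 2 compounds for Stra6 (65.8) and Lrrc15 (13.3).

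The 5 genes also differed in abundance and in noise. Per kilobase of exon, the mean count was 92.6 for Ch25h, 30.1 for Stra6, 14.9 for Pakap, 7.36 for Lrrc15 and 1.62 for Ptprb, where the median of 37 of the 38 genes with a gene model was 39.1. On this scale Ptprb ranked 37 of 37 and Ch25h 9. The Pakap value divides by all its exonic bases, 98.2% of them shared with Akap2 and Palm2. How reads there were assigned is not known, so that value may not compare with the others. The dispersion implied by the errors gives variation between samples beyond counting noise, and it was not measured on single samples. As a coefficient of variation it was 30.4% for Pakap and 29.4% for Ptprb, the 2 largest of the 38 genes, whose median was 14.0%. It was 15.5% for Ch25h, 18.3% for Stra6 and 18.5% for Lrrc15. Pakap and Ch25h had nearly the same mean count, 126 and 128, yet the standard error of Pakap was 0.35 and that of Ch25h 0.20 under SB431542. Of 95 other genes of the SB431542 table with a mean count within a factor of 1.25 of Pakap, 94 had a smaller standard error.

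**Figure D3:**
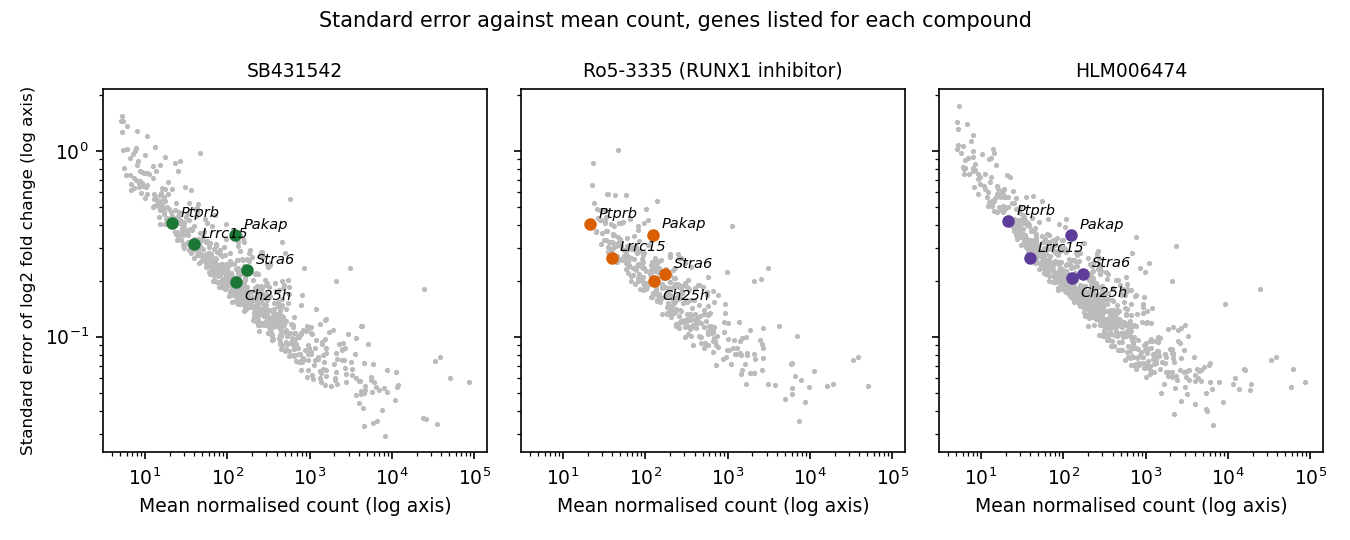
The standard error of the log2 fold change (vertical log axis) is plotted against the mean normalised count (horizontal log axis) for genes of each table, with the 5 genes in colour; 4 genes for SB431542 and 1 for HLM006474 with an error of 2 or more are not drawn. Pakap lies above most genes of its count in each panel, while Ptprb lies at the left edge of the panel of the RUNX1 inhibitor.

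Stra6 and Lrrc15 were lower under SB431542 than under either other compound, and no pair of compounds differed for Ptprb or Pakap by the test used. The difference of 2 log2 fold changes was tested with a 2-sided z test on the authors' standard errors, for 3 pairs of compounds, with Benjamini-Hochberg adjustment over all genes in both tables of a pair. Only genes that had passed the authors' limits against vehicle for both compounds could be tested. The same fold changes thus chose the genes tested, and the adjusted p values take no account of that choice. Stra6 was 1.96 times higher under HLM006474 than under SB431542 (difference of 0.97 ± 0.32 SE on the log2 scale, adjusted p = 0.00746, z test). Under the RUNX1 inhibitor it was 2.47 times higher than under SB431542 (1.30 ± 0.31, adjusted p = 0.000339, z test). Lrrc15 was 2.53 times higher under HLM006474 than under SB431542 (1.34 ± 0.41, adjusted p = 0.00401, z test) and 2.56 times higher under the RUNX1 inhibitor (1.36 ± 0.41, adjusted p = 0.00618, z test). Between HLM006474 and the RUNX1 inhibitor the difference was -0.33 for Stra6 (95% interval -0.94 to 0.27) and -0.02 for Lrrc15 (-0.75 to 0.72), and neither passed (adjusted p = 0.802 and 0.998, z test).

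Ch25h had its lowest value under HLM006474, and whether that differed from the other compounds depended on the error used. The difference from SB431542 was -0.54 (95% interval -1.10 to 0.02; adjusted p = 0.141, z test) and from the RUNX1 inhibitor -0.64 (-1.20 to -0.07; adjusted p = 0.198, z test). This error counts the shared vehicle samples in both comparisons and is too large where groups vary alike. Their variance was removed by a fixed factor of 0.571, which takes all samples to vary alike. Both differences then passed, at adjusted p = 0.0294 and 0.0249 (z test). The implied level of Ch25h was lower under each compound than in vehicle, so counting noise was larger there. The fixed factor may thus remove too much, and these adjusted p values may be too small. Between the RUNX1 inhibitor and SB431542 the difference of Ch25h was 0.09 (-0.46 to 0.64), which did not pass under either error.

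For Ptprb the differences were -0.24 (95% interval -1.38 to 0.91) between HLM006474 and SB431542, -0.53 (-1.67 to 0.61) between HLM006474 and the RUNX1 inhibitor, and 0.29 (-0.83 to 1.41) between the RUNX1 inhibitor and SB431542. For Pakap they were -0.02 (-0.995 to 0.948), 0.21 (-0.76 to 1.19) and -0.24 (-1.21 to 0.74) in the same order. The adjusted p values of these 6 differences ran from 0.874 to 0.995 (z test). The intervals for both genes reach about 1 log2 unit to either side of the difference, so differences smaller than that were not detectable at this precision.

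**Figure D4:**
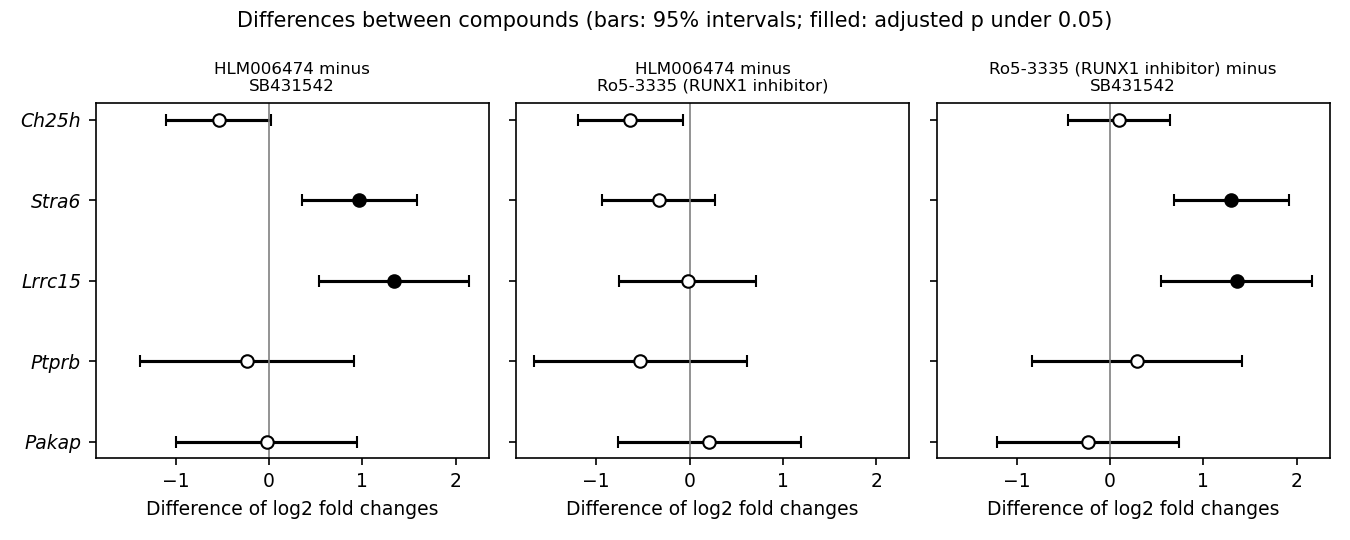
Each panel shows, for 1 pair of compounds, the difference of the log2 fold changes (horizontal axis) of the 5 genes with 95% intervals; filled points have an adjusted p under 0.05. The filled points are Stra6 and Lrrc15 in the 2 panels with SB431542, at 0.97, 1.34, 1.30 and 1.36.

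In all, 2 of the 5 genes passed between HLM006474 and SB431542, where 32.9% of the 161 genes in both tables passed. Between the RUNX1 inhibitor and SB431542 2 of 5 passed, beside 17.2% of 93 genes, and between HLM006474 and the RUNX1 inhibitor 0 of 5 passed, beside 9.48% of 211 genes. Among genes lower in both tables of a pair the shares were 19.4%, 12.3% and 7.39% in that order. With the variance of the shared vehicle samples removed, all samples being taken to vary alike, 3, 2 and 1 of the 5 genes passed in the same order. Beside them, 69 of 161, 20 of 93 and 34 of 211 genes passed. With 5 genes these counts are not read as particular to them.

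Within the 38 genes the 5 shared a low mean fold change, which the choice fixed, but not a pattern over compounds. Lrrc15 and Stra6 had wide ranges over compounds, 1.36 and 1.30 on the log2 scale, exceeded only by Chst1, a sulfotransferase gene, at 1.38. The median range of the 38 genes was 0.43, and Pakap had 0.24. The deepest value was under SB431542 for 2 of the 5 genes, under HLM006474 for 2 and under the RUNX1 inhibitor for 1. Over the 38 genes it was under SB431542 for 18, HLM006474 for 12 and the RUNX1 inhibitor for 8. Ch25h, Ptprb and Pakap were at -1 or lower in all 3 authors' deposited tables, and no other gene of the 38 was. A choice by the lowest mean favours such genes. At the edge of the 5 genes, Ptprb and the next gene, Gpr84, a receptor for medium-chain fatty acids on myeloid cells, both had a mean of -1.34.

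**Figure D5:**
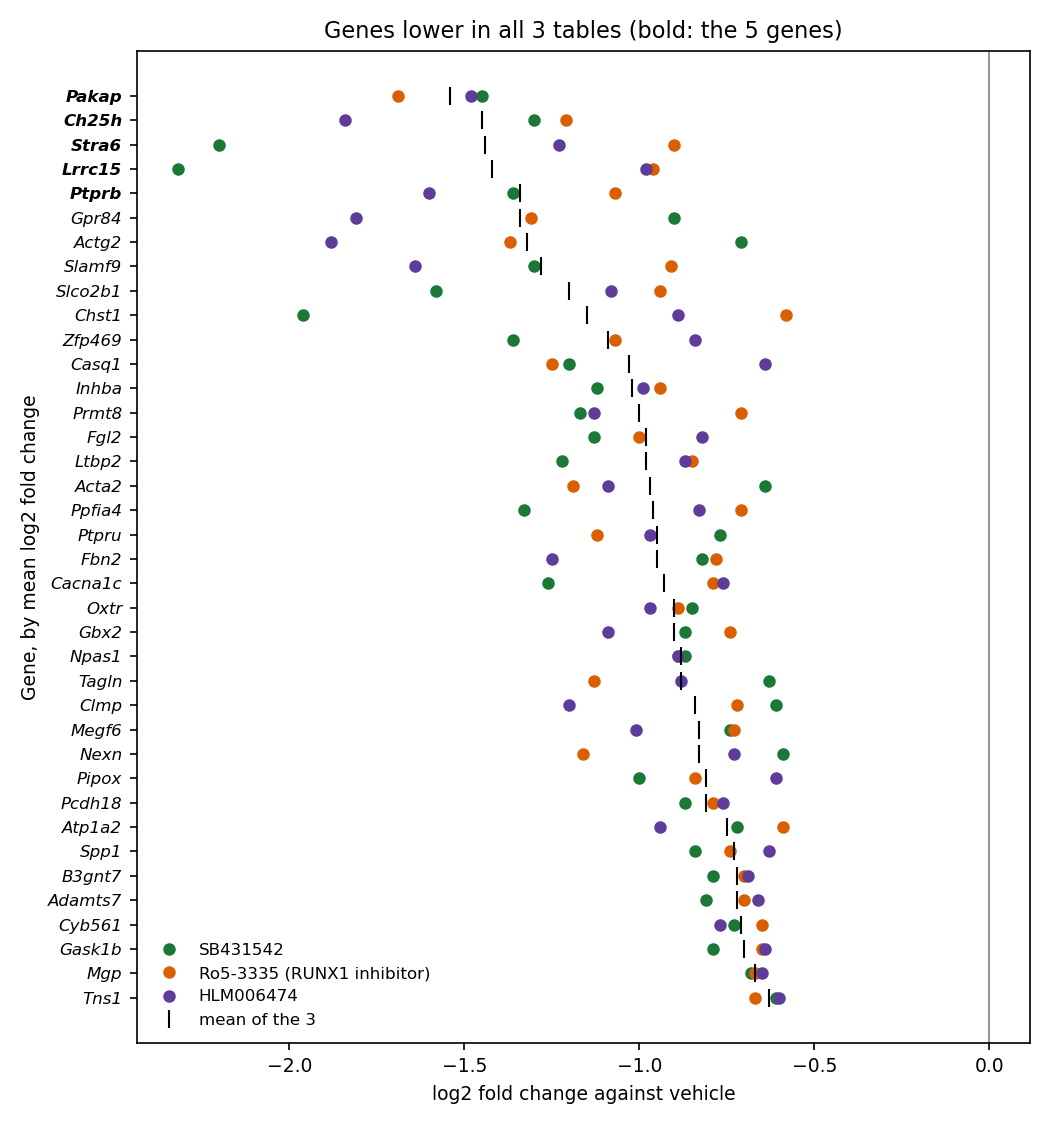
The log2 fold changes (horizontal axis) of the 38 genes lower in all 3 tables are plotted by compound, 1 row for each gene in order of the mean of the 3 values (black tick), with the 5 genes in bold at the top. Stra6, Lrrc15 and Chst1 show SB431542 far to the left of the other compounds, while Actg2 has its highest value under SB431542 (-0.71) and its lowest under HLM006474 (-1.88).

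Likeness of pattern was measured as the Euclidean distance between the 3 log2 fold changes of 2 genes among the 38. Stra6 and Lrrc15 were each other's nearest gene, at a distance of 0.28. Next for both was Chst1, at 0.52 from each, with -1.96 under SB431542, -0.58 under the RUNX1 inhibitor and -0.89 under HLM006474 in the authors' deposited tables. The third was Slco2b1, an organic anion transporter gene, at 0.64 from Stra6 and 0.74 from Lrrc15. Its values were -1.58, -0.94 and -1.08 in the authors' deposited tables. Chst1 also differed between SB431542 and both other compounds (adjusted p = 4.02e-05 for HLM006474 and 9.23e-08 for the RUNX1 inhibitor, z test).

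Ch25h and Ptprb lay 0.29 apart. Slamf9, a receptor gene of myeloid cells, was the nearest gene to Ptprb at 0.18 and lay 0.36 from Ch25h, with -1.30, -0.91 and -1.64 under SB431542, the RUNX1 inhibitor and HLM006474 in the authors' deposited tables. Gpr84 was the third nearest for Ch25h (0.41), for Ptprb (0.56) and for Pakap (0.75). Its values were -0.90, -1.31 and -1.81 in the authors' deposited tables. The nearest genes to Pakap were Ch25h at 0.63 and Ptprb at 0.64, so no gene of the 38 was as close to Pakap as the nearest ones were to the other 4 genes. These distances rest on 3 values for each gene that share the vehicle samples. They take no account of the standard errors, which were 0.40 to 0.42 for Ptprb and 0.35 for Pakap. The order of the nearest genes is therefore a description only.

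The other genes of each system were in the tables only here and there. A list share divides by all genes named on the list, tested or not. The share beside it divides by genes tested only, so the bases are unlike. Of 28 further genes of oxysterol and cholesterol handling, SB431542 listed 0, the RUNX1 inhibitor 1 lower and HLM006474 4 lower and 1 higher. These are 14.3% lower and 3.57% higher for HLM006474, beside 4.22% and 1.42% of all genes tested. Gpr183, the receptor for oxysterols made from the product of Ch25h, stood at -0.68 ± 0.22 for the RUNX1 inhibitor and -0.70 ± 0.22 for HLM006474 in the authors' deposited tables (SE). The synthesis genes Fdps, Lss and Nsdhl stood at -0.79 ± 0.065, -0.78 ± 0.16 and -0.63 ± 0.069 for HLM006474 in the authors' deposited table. Mylip, which directs breakdown of the LDL receptor, stood at 0.62 ± 0.12 there, in the authors' deposited table.

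Of 27 further retinoid genes SB431542 listed 1 higher, beside 2.29% of all genes tested that were higher, the RUNX1 inhibitor 1 lower and HLM006474 3 lower. The lower genes are 3.70% and 11.1% of the list, beside 2.32% and 4.22% of all genes tested. Crabp1, which binds retinoic acid in the cytoplasm, stood at 0.94 ± 0.19 for SB431542 and at -0.88 ± 0.21 for HLM006474 in the authors' deposited tables, a difference of -1.81 ± 0.28 (adjusted p = 1.89e-09, z test). Aldh1a2, an enzyme that makes retinoic acid, and Rbp2, a retinol-binding protein gene, stood at -0.75 ± 0.16 and -0.65 ± 0.25 for HLM006474 in the authors' deposited table. Rlbp1, which carries retinaldehyde in Müller glia and pigment epithelium, stood at -0.58 ± 0.18 for the RUNX1 inhibitor in the authors' deposited table. No other receptor for retinol or retinoic acid on the list was in a table.

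Of 30 further genes for leucine-rich repeat matrix and surface proteins SB431542 listed 3, the RUNX1 inhibitor 2 and HLM006474 1, all lower. These are 10.0%, 6.67% and 3.33% of the list, beside 2.64%, 2.32% and 4.22% of all genes tested. The HLM006474 share is 1 gene of 30, so nothing is read from it. Under SB431542 these were the small proteoglycans Bgn at -0.84 ± 0.062, Omd at -0.65 ± 0.11 and Podn at -0.84 ± 0.16, in the authors' deposited table. Lrrc32, which holds latent TGF-beta at the cell surface, stood at -0.74 ± 0.21 for the RUNX1 inhibitor in the authors' deposited table. Flrt1, an adhesion protein gene, stood at -0.79 ± 0.24 for the RUNX1 inhibitor and -0.65 ± 0.23 for HLM006474 in the authors' deposited tables.

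Of 26 further genes for receptor tyrosine phosphatases and angiopoietin signalling, 1 lower gene was in each table, Ptpru. That is 3.85% of the list, near the 2.64%, 2.32% and 4.22% of all genes listed lower for SB431542, the RUNX1 inhibitor and HLM006474. This phosphatase gene stood at -1.12 ± 0.31 for the RUNX1 inhibitor, -0.97 ± 0.30 for HLM006474 and -0.77 ± 0.30 for SB431542 in the authors' deposited tables, and it is 1 of the 38. Angpt2, a ligand of Tek, stood at 1.29 ± 0.32 for SB431542 in the authors' deposited table and was the only higher gene of the list in any table. Of 11 endothelial markers only Flt1, a VEGF receptor gene, was in a table, at -1.17 ± 0.41 for SB431542 and -1.12 ± 0.41 for the RUNX1 inhibitor in the authors' deposited tables. The levels of the other 10 endothelial markers were not analysed here, and the part of endothelial cells in the values of Ptprb was not tested. Of 26 further genes for kinase A anchors, kinase A subunits and paralemmins, Akap12 stood at -0.59 ± 0.054 for the RUNX1 inhibitor and Akap5 at -0.78 ± 0.14 for HLM006474, in the authors' deposited tables. SB431542 listed 0 of these 26, and 1 of 26 is 3.85%, beside 2.32% and 4.22% of all genes listed lower for the other 2 compounds.

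Markers of other cells moved in the same tables. Some had high mean normalised counts: 37998 for Acta2, 33838 for Tagln, 24249 for Lyz2 and 11402.5 for Col1a1. Others were low, such as Mobp at 54.7 and Myh11 at 13.6. The numbers of markers listed stand beside 2.64% of all genes tested that were lower and 2.29% higher for SB431542, 2.32% and 0.605% for the RUNX1 inhibitor, and 4.22% and 1.42% for HLM006474. Of 11 microglia and macrophage markers SB431542 listed 4 lower and 3 higher, the RUNX1 inhibitor 0 and HLM006474 3 lower and 1 higher. The lower ones are 36.4% and 27.3% of the list for SB431542 and HLM006474, and the higher ones 27.3% and 9.09%. In the authors' deposited tables, the lower markers for SB431542 ran from -4.00 ± 0.11 (Tmem119) to -0.66 ± 0.052 (C1qa), with Cx3cr1 at -2.21 ± 0.081. The higher markers for SB431542 ran there from 0.65 ± 0.18 (Lyz2) to 2.64 ± 0.11 (Mrc1). For HLM006474 the lower markers ran there from -1.08 ± 0.070 (Tmem119) to -0.82 ± 0.17 (P2ry12), beside 1.08 ± 0.18 for Lyz2. Of 10 markers of pericytes and smooth muscle SB431542 listed 4 lower, the RUNX1 inhibitor 2 lower and HLM006474 5 lower and 1 higher, with Acta2 and Tagln lower in all 3. Of 9 fibroblast markers SB431542 listed Col1a1 and Col1a2 lower, at -1.08 ± 0.054 and -0.90 ± 0.061, in the authors' deposited table. For HLM006474 only Pdgfra was listed, lower, and for the RUNX1 inhibitor 0 of the 9. Of 7 Müller glia markers the RUNX1 inhibitor listed 2 lower, HLM006474 1 lower and SB431542 0. Of 10 oligodendrocyte lineage markers HLM006474 listed 6 lower (60.0%), SB431542 1 lower (10.0%) and the RUNX1 inhibitor 0. Of 8 pigment epithelium markers besides Stra6, the RUNX1 inhibitor listed Rlbp1 and the other compounds 0. Of 7 neuron markers each compound listed 1, higher for SB431542 and lower for the other 2. The lists share genes, so their counts are not separate, and their shares again divide by all markers named, tested or not. Cspg4 is counted for pericytes and the oligodendrocyte lineage, Pdgfra for fibroblasts and that lineage, and Rlbp1 for Müller glia and pigment epithelium. The part of any of these cell types in the values of the 5 genes was not tested.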

How the data were processed

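Total RNA of cultured mouse astrocytes was sequenced in 13 samples. CASAVA 1.8, STAR 2.7, DESeq2 1.30.1 and build GRCm38 are named in the submitters' processing notes. Counter, annotation and strand setting were not given in the sources used here. For each compound against vehicle 1 of the authors' deposited tables holds a mean normalised count (a signal level over libraries), a log2 fold change, its standard error (also log2), a Wald score, and a p-value and adjusted p-value, per the file headers. All genes listed have an absolute log2 fold change of at least 0.58, a fold of just under 1.5, and pass an adjusted p of 0.05. The mean count of a gene is the same in each table, so all groups were taken to be in 1 fit.

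Python 3.11.15, pandas 2.3.3 and scipy 1.17.1 were used. The number of genes tested was found from the ratio of p to adjusted p, as the number that makes ranks whole within 0.02 (79.9% to 81.4% of ranks checked). Differences between compounds were tested with a 2-sided z test, checked on simulated data, with the 2 standard errors combined as independent. The simulation drew normal values with known errors, the same spread in all groups and no choice of genes. It therefore does not cover estimated errors, unequal spread or the limits that a gene passed to be listed. Intervals are normal 95% intervals, and they cover the authors' errors only. Group levels were solved from the mean count, the fold changes and the group sizes. The members and gene lists were chosen with earlier results of these data known. Named genes are the 5 genes, list genes in a table, the 3 nearest patterns to each, and neighbours in the order of the 38 genes. Alternatives were another error, another adjustment family, stricter thresholds and a mean count of at least 50.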

Additional observations from a re-analysis of the deposited data

How the results depend on the processing

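The 4 differences that passed, Stra6 and Lrrc15 between SB431542 and each other compound, passed under each alternative in which the gene was tested. With a mean count of at least 50, Lrrc15 (39.1) and Ptprb (21.6) were left out, so 1 of the remaining 3 genes passed between HLM006474 and SB431542 and 1 between the RUNX1 inhibitor and SB431542, and 3 of the 5 genes remained among 32 genes lower in all 3 tables. With the variance of the shared vehicle samples removed, Ch25h also passed in both comparisons with HLM006474 (-0.54 and -0.64, adjusted p = 0.0294 and 0.0249, z test), so that 1 gene passed between HLM006474 and the RUNX1 inhibitor. That setting takes all samples to vary alike, and it raised the genes passing in this pair from 20 to 34. With a log2 fold change of -1 or lower in all 3 tables, 3 genes remained, and all 3 are among the 5 (Ch25h, Ptprb and Pakap), which a choice by the lowest mean favours. With an adjusted p under 0.01 in all 3 tables, 32 genes remained and Ptprb was lost. The adjustment over all 3 pairs together left each of the 15 differences on its side of the threshold. No paired analysis was possible because the tables used give 1 fold change and 1 standard error for each gene and compound and no column for a single sample, and for the same reason leaving out a replicate was not run. The depth of each library is unknown. Of the 5 genes, Ptprb had the lowest mean count (21.6) and the widest interval in each of the 3 comparisons of compounds.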
